A study of Mus musculus with 3 samples.

Results

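Collagen chain genes were examined as a family in regenerating mouse tibialis anterior muscle, a muscle at the front of the lower leg. The members were all features whose symbol has the form Col, a number, a and a number, and 44 of the 32285 features in the files matched. Of these, 42 had at least 50 unique molecular identifiers (UMIs, tags that count single RNA molecules) over the cells kept. Col9a1 with 35 UMIs and Col10a1 with 26 were below that limit. C57/BL6J mice had received barium chloride in this muscle to injure it, and single cells were taken 4 days later. Group young PBS comprised mice of 3 to 4 months given saline, old PBS mice of 24 to 26 months given saline, and old rMETRNL mice of 24 to 26 months given recombinant meteorin-like, a secreted protein. All of them were injured and injected at the time of injury and 24 and 48 hours later, and none was uninjured. Each group had 1 library, for which the methods pooled 3 mice, so that differences between libraries have no replicate check, no test between groups was made, and every interval covers counting error only.

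Collagens are the main structural proteins of the extracellular matrix, each molecule being a helix wound from chains that separate genes encode. Fibrillar chains (types I, III, V and XI) build the tension-bearing fibrils of muscle connective tissue and tendon, type IV chains form the network of basement membranes around fibres, vessels and nerves, and type VI chains form beaded filaments next to the fibre. In injured muscle, fibro/adipogenic progenitors (FAPs), the resident mesenchymal cells, are known as a main source of collagen, and the deposit is transient in normal repair and lasting in fibrosis.

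All 44 chains were placed on GRCm38 by their gene identifiers (GENCODE M21), on 15 chromosomes. Counting neighbours less than 100 kb apart, 8 pairs shared a locus, and in 3 of them, which hold all 6 type IV chains, the starts of both genes faced each other. Col4a1 (ENSMUSG00000031502, chr8:11198423-11312826, minus strand) and Col4a2 (ENSMUSG00000031503, chr8:11312805-11449287, plus strand) overlapped by 22 bases at their starts. Col4a4 (chr1:82448423-82586849, minus strand) and Col4a3 (chr1:82586921-82722059, plus strand) lay 71 bases apart and Col4a6 and Col4a5 on chromosome X 1308 bases apart. Sequence upstream of the annotated start is shown, from RefSeq on GRCm38.p6, for chains that the comparisons in FAP-like cells turn on. It is the whole stretch between the starts for Col4a4 with Col4a3, and the 250 bases before the start for Col4a6, Col15a1, Col8a1, Col11a1 and the abundant Col3a1. The RefSeq start was used, which for Col15a1 lies upstream of the GENCODE start, with 149 bases between the window and the latter, and for the others is the same. Capitals mark matches, on either strand, to the core of the TATA box (TATAAA), of the CAAT box (CCAAT) and of the GC box (GGGCGG).
Col4a4 to Col4a3 (chr1:82586850-82586920, minus strand): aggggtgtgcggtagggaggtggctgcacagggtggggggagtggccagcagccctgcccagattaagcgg
Col4a6 (chrX:141474077-141474326, minus strand): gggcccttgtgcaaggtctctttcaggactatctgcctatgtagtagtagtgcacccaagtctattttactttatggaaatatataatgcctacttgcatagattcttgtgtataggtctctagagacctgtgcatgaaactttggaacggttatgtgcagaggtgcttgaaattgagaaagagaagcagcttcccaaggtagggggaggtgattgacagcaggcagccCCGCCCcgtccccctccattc
Col15a1 (chr4:47207762-47208011, plus strand): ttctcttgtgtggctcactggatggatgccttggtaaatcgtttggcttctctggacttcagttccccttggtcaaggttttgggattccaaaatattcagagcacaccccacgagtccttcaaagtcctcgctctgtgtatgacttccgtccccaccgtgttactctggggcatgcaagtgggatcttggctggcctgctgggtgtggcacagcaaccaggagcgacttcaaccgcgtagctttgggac
Col8a1 (chr16:57754738-57754987, minus strand): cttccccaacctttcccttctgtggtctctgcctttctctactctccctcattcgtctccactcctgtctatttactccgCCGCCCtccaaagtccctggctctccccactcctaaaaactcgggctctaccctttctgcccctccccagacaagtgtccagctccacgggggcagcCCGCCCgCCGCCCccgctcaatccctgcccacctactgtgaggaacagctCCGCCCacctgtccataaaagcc
Col11a1 (chr3:114030290-114030539, plus strand): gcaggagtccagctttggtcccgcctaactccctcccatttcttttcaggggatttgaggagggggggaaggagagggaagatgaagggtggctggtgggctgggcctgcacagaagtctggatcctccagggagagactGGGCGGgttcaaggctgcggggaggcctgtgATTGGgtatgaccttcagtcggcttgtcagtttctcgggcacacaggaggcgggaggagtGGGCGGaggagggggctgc
Col3a1 (chr1:45311288-45311537, plus strand): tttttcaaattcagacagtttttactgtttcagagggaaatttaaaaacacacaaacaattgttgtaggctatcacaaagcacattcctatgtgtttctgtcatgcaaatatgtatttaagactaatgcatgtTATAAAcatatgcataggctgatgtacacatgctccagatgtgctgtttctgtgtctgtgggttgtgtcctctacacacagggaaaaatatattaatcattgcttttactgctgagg
GGGCGG matched 4 times before Col8a1, 2 times before Col11a1 and 1 time before Col4a6. Col11a1 also held a match to CCAAT, and Col3a1 held the only match to TATAAA in these windows, 117 bases before its start. The stretches of Col4a4 and Col15a1 held no match to the letters searched. Of all 32851 windows of 250 bases before a start, 12.4% held TATAAA, 33.8% CCAAT and 32.7% GGGCGG. Promoter entries were matched for 35 of the 44 chains, and 5, 13 and 21 of them held these motifs. A match describes letters and not a bound site.

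The files held 12168, 12568 and 14012 cell barcodes with 218059089, 179295668 and 228966697 UMIs in young PBS, old PBS and old rMETRNL. Groups of 3 values are given in this order throughout. After filtering, 10293, 9946 and 11353 cells were kept. Pairs of libraries shared 58 to 80 barcodes. Cells were placed in classes by clustering without any collagen gene, and each class was named from non-collagen markers. Sub-clusters led by genes of immune cells or fibres were left out of the FAP-like class, and they held 4.14%, 5.98% and 8.01% of the cells first placed there. FAP-like cells numbered 1646, 1337 and 1700, tenocyte-like cells (tendon fibroblasts) 195, 116 and 214, mural-like cells (pericytes and vascular smooth muscle) 82, 104 and 82, endothelial-like cells 652, 912 and 966, glial-like cells 20, 66 and 45, muscle stem-like cells 316, 156 and 338 and macrophage-like cells 5858, 5542 and 6252. Muscle stem-like cells came from sub-clusters of a cluster first named myocyte-like. Of these sub-clusters, those of 299 and 185 cells were led by genes of dividing cells such as Cenpf, Hmmr and Hist1h1b. The one of 326 cells was led by Itih5 and Chodl. Levels in this class are thus in large part those of dividing cells of the muscle lineage. All 12 FAP markers, among them Pdgfra and Dcn, were detected in FAP-like cells of every library. The class was named from these markers, so their detection is no separate check of its identity. They also had UMIs in macrophage-like cells, where Pdgfra had 40, 62 and 77. Levels are given in CPM, the usual scaling of the UMIs of a gene by the UMIs of all genes in that class and library. A UMI counts a molecule whatever its length, so CPM of different chains were compared without division by length.

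Collagen transcripts made up 4.41%, 4.68% and 4.16% of all UMIs in FAP-like cells and 4.61%, 3.64% and 4.41% in tenocyte-like cells. Shares were lower in mural-like (1.28%, 0.807% and 0.901%), glial-like (0.617%, 0.335% and 0.49%), endothelial-like (0.529%, 0.382% and 0.508%) and muscle stem-like cells (0.192%, 0.212% and 0.166%). Macrophage-like cells held 0.0177%, 0.0179% and 0.0185%. Since FAP-like cells were also numerous, they held 83.6%, 87.1% and 83.1% of all collagen UMIs of a library, and tenocyte-like cells 8.46%, 4.71% and 7.77%. Fibrillar chains accounted for 82.5% of collagen UMIs, beaded filament chains for 9.45%, type IV chains for 3.83% and FACIT chains (collagens that attach to fibril surfaces) for 2.07%. Short chain collagens made up 1.1% and the multiplexins Col15a1 and Col18a1, collagens of basement membrane zones, 0.997%.

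The fibrillar chains of types I and III dominated in FAP-like and tenocyte-like cells. Col3a1, the chain of the type III homotrimer, was at 11605 CPM (young PBS), 13931 CPM (old PBS) and 12214 CPM (old rMETRNL) in FAP-like cells. Col1a1 and Col1a2, which together form type I collagen, were at 11843, 10499 and 9614 CPM and 10409, 10271 and 9953 CPM there. In tenocyte-like cells the order was different. Col1a1 stood at 16093, 12045 and 14729.9 CPM and Col1a2 at 14851, 11658 and 14872 CPM, above FAP-like cells in all 3 libraries, whereas Col3a1 stood at 6289, 4476 and 5816 CPM, below FAP-like cells in all 3. The type V chains, which regulate fibril diameter, were led by Col5a2 with 1996, 2182 and 1898 CPM in FAP-like cells, beside 1164, 1159 and 1007 CPM for Col5a1 and 435, 580.0 and 479 CPM for Col5a3.

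Type XI chains, partners of cartilage and tendon fibrils, marked tenocyte-like cells. Col11a1 was at 618 CPM (young PBS), 546 CPM (old PBS) and 629 CPM (old rMETRNL) there against 13.9, 4.24 and 10.1 CPM in FAP-like cells. Col11a2 was at 108, 95.8 and 90.4 CPM against 0.993, 1.23 and 0.775 CPM. The cartilage chain Col2a1 was rare, at 10.7, 7.86 and 9.04 CPM in tenocyte-like cells. Among the minor fibrillar chains, Col27a1 was at 84.1, 82.1 and 71.8 CPM in FAP-like and 101, 87.8 and 136 CPM in glial-like cells, and Col24a1 at 2.36, 1.68 and 1.8 CPM and 5.95, 40.3 and 33.1 CPM. The glial-like values rest on few cells and UMIs, 1, 11 and 8 UMIs for Col24a1.

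The type IV chains of the common basement membrane network, Col4a1 and Col4a2, were the chains with the highest level in endothelial-like cells. Col4a1 was at 2399 CPM (young PBS), 1782 CPM (old PBS) and 2421 CPM (old rMETRNL) there, and at 2471, 1861 and 1534 CPM in mural-like cells. Col4a2 was at 1505, 1128 and 1504 CPM and 1292, 1112 and 962 CPM. Col15a1 came next in endothelial-like cells, at 491, 295 and 441 CPM. Its relative Col18a1, the precursor of endostatin, was at 419, 174 and 361 CPM in endothelial-like and 761, 371 and 706 CPM in mural-like cells. In mural-like cells Col3a1 was also among the leading chains, at 1760.0, 843 and 1267 CPM, while Col6a3 was at 1199, 662 and 688 CPM and Col1a1 at 1048, 520.1 and 855 CPM.

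The minor type IV chains were far lower. Col4a5 was highest in FAP-like cells (21.3, 32.2 and 25.3 CPM). Col4a4 and Col4a3, partners in specialised basement membranes such as that of the kidney glomerulus, had their highest level in mural-like cells, at 24.8, 20.5 and 29.4 CPM and 11.7, 8.55 and 7.36 CPM, which correspond to 17, 12 and 16 UMIs and 8, 5 and 4 UMIs. Col4a6 was at 1.04, 2.22 and 1.14 CPM in FAP-like cells.

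Type VI chains form a filament from the products of Col6a1, Col6a2 and 1 long chain. In FAP-like cells Col6a3, the usual long chain, was at 1671, 2039.6 and 1610.4 CPM, Col6a1 at 1394, 1566 and 1249 CPM and Col6a2 at 1112, 1325 and 1057 CPM. The alternative long chains Col6a6 (10.02, 17.2 and 10.7 CPM), Col6a5 (5.34, 2.32 and 1.03 CPM) and Col6a4 (0.949, 0.444 and 0.524 CPM) were at least 100 times lower than Col6a3 in each library.

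FACIT chains divided by cell class. Col12a1, found in fibrils of tendon and muscle, was at 783, 896 and 949.9 CPM in tenocyte-like cells against 260.3, 174 and 199 CPM in FAP-like cells, whereas Col14a1 was at 143, 174 and 118 CPM against 462, 480.3 and 469.5 CPM. Col22a1, a chain known from myotendinous junctions, was at 19.8, 38.3 and 43.9 CPM in tenocyte-like cells, with 5 UMIs in all FAP-like cells together. Col19a1 was found in muscle stem-like cells, at 3.87 CPM (young PBS), 7.1 CPM (old PBS) and 9.03 CPM (old rMETRNL), with 0 UMIs in tenocyte-like, mural-like, endothelial-like and glial-like cells. For endothelial-like cells of old PBS, 0 counts allow a level of up to 0.457 CPM. Col20a1 was at 393, 409.9 and 331 CPM in glial-like cells and at 1.81, 1.95 and 1.53 CPM in FAP-like cells. Col16a1 was at 239, 239 and 218 CPM in tenocyte-like and 218, 201 and 173 CPM in FAP-like cells. The type IX chains Col9a2 (2.45, 1.03 and 0.479 CPM in FAP-like cells) and Col9a3 (1.13, 1.81 and 1.41 CPM) were rare, with 29.8, 25.6 and 37.2 CPM for Col9a3 in glial-like cells.

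Of the remaining chains, Col8a1, a network-forming short chain, was at 413, 627 and 412 CPM in FAP-like cells and its partner Col8a2 at 70.8, 74.6 and 75.4 CPM in tenocyte-like cells. Col28a1, a chain known from peripheral nerve, was at 244, 91.5 and 161 CPM in glial-like cells and 10.6, 8.69 and 6.32 CPM in endothelial-like cells. The transmembrane chain Col23a1 was at 65.5, 95.2 and 53.8 CPM in glial-like and 30.7, 29.9 and 22.8 CPM in FAP-like cells. Col13a1, a transmembrane chain of neuromuscular and other junctions, was at 13.2, 24.1 and 19.6 CPM in tenocyte-like and 7.13, 3.45 and 6.14 CPM in muscle stem-like cells. Col25a1 (8.74, 6.84 and 5.52 CPM in mural-like cells) and Col17a1, the hemidesmosome chain (1.41, 1.01 and 0.597 CPM in muscle stem-like cells), were near the floor of detection. Col26a1 was at 8.62, 7.71 and 4.43 CPM in muscle stem-like cells, and the anchoring fibril chain Col7a1 at 2.43, 2.91 and 2.3 CPM in FAP-like cells.

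Among these 7 classes, the one with the highest level was the same in all 3 libraries for 32 of the 42 chains. It was the tenocyte-like class for 10 chains, the FAP-like class for 8, the glial-like class for 6, the mural-like class for 5, the endothelial-like class for 2 and the muscle stem-like class for 1, Col19a1. These counts depended on the processing. Over the alternatives they were 0 to 6 for endothelial-like, as few as 3 for mural-like and for glial-like and up to 2 for muscle stem-like cells. For 21 of these 32 chains the counting interval of the highest class also lay apart from that of the next class in every library. None of the 5 mural-like chains met that condition, and of the 6 glial-like chains 4 did (Col9a3, Col20a1, Col23a1 and Col28a1). The glial-like levels rest on few UMIs and cells, which a counting interval does not allow for. Col9a3 had 5, 7 and 9 UMIs there. In young PBS the highest of the 20 glial-like cells for each chain held 35 of 66 Col20a1 UMIs and 17 of 41 Col28a1 UMIs. For the other 10 chains, among them Col4a1, Col6a1, Col6a2 and Col18a1, the order of classes differed between libraries.

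**Figure D1:**
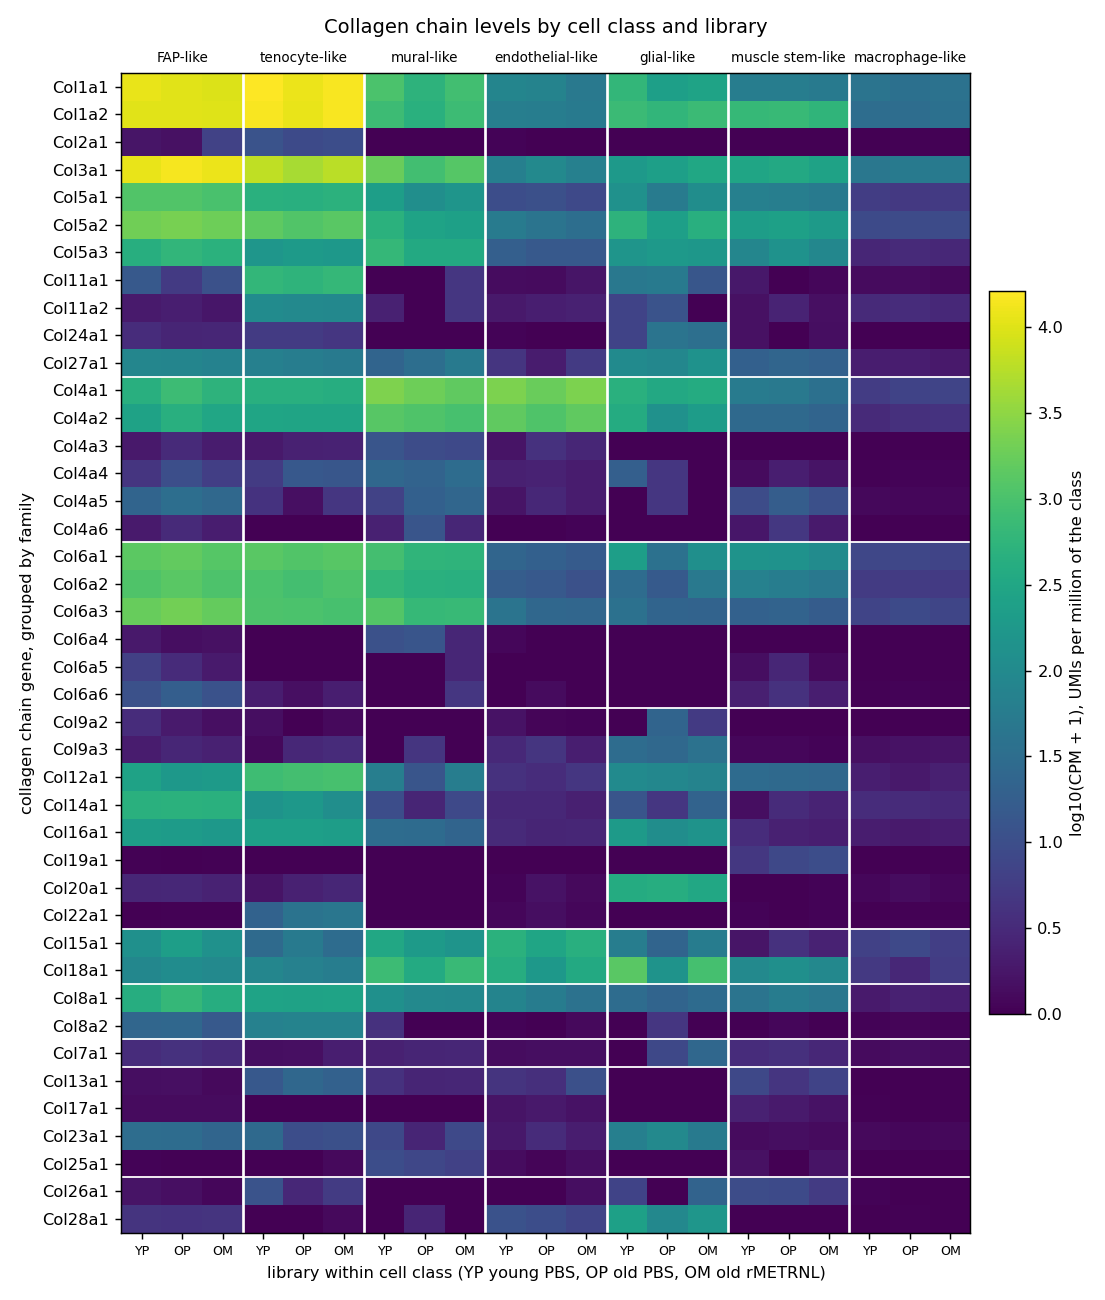
Levels of the 42 collagen chains (rows, grouped by family with white lines) in 7 cell classes and 3 libraries (columns), as log10 of CPM plus 1. Types I, III, V and VI are high in the FAP-like and tenocyte-like columns, Col4a1, Col4a2, Col15a1 and Col18a1 in the mural-like and endothelial-like columns, Col20a1 and Col28a1 in glial-like cells, and the macrophage-like columns are low throughout.

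The transcripts of chains that assemble together did not stand in 1 fixed ratio across classes. The Col1a2 to Col1a1 ratio of UMIs was 0.879, 0.978 and 1.04 in FAP-like cells and 0.923, 0.968 and 1.01 in tenocyte-like cells. In muscle stem-like cells it was 10.8 (9.94–11.6), 11.7 (10.4–13.2) and 11 (10.1–12), with Col1a2 at 651, 694 and 559 CPM and Col1a1 at 60.5, 59.4 and 50.8 CPM. The 3 chains with the highest level in muscle stem-like cells were thus Col1a2, Col3a1 (297, 347 and 265 CPM) and Col5a2 (217, 241 and 194 CPM). Glial-like cells lay between, with ratios of 1.22 (0.935–1.6), 2.5 (1.86–3.4) and 2.68 (2.01–3.61), Col1a2 at 749.8, 586 and 732 CPM, Col1a1 at 613, 234 and 273 CPM and Col5a2 at 529.6, 234 and 442 CPM. Summed FAP markers in muscle stem-like cells were at 357, 380.0 and 329.6 CPM against 10972, 16977 and 13210.4 CPM in FAP-like cells. The Col1a2 to Col1a1 ratio of macrophage-like cells, 0.765, 0.894 and 0.919, was near that of FAP-like cells.

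Muscle stem-like cells also differed in type VI. Their Col6a3 to Col6a1 ratio was 0.131, 0.15 and 0.153, against 1.2, 1.3 and 1.29 in FAP-like and 0.782, 0.892 and 0.727 in tenocyte-like cells. Col6a1 itself was at 147, 138 and 104 CPM there and Col6a3 at 19.2, 20.7 and 16 CPM. The alternative long chains Col6a4, Col6a5 and Col6a6 were each at or below 3.04 CPM in that class. Col5a2 exceeded Col5a1 in every class, by 1.72, 1.88 and 1.89 times in FAP-like and 3.29, 3.94 and 3.6 times in muscle stem-like cells. The Col4a2 to Col4a1 ratio was 0.581, 0.591 and 0.587 in FAP-like, 0.628, 0.633 and 0.621 in endothelial-like, 0.523, 0.597 and 0.627 in mural-like and 0.676, 0.651 and 0.666 in tenocyte-like cells. It was 0.494, 0.542 and 0.63 in muscle stem-like, 0.476, 0.484 and 0.50 in macrophage-like and 0.835, 0.385 and 0.538 in the few glial-like cells, and Col4a1 exceeded Col4a2 in all of them. The neighbouring genes Col3a1 and Col5a2, whose ends face each other 24614 bases apart on chromosome 1, had a Col3a1 to Col5a2 ratio of 5.81, 6.39 and 6.43 in FAP-like and 1.37, 1.44 and 1.37 in muscle stem-like cells. Col8a2 UMIs were 0.262, 0.287 and 0.276 of those of Col8a1 in tenocyte-like cells and 0.0578, 0.0391 and 0.0345 in FAP-like cells.

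**Figure D2:**
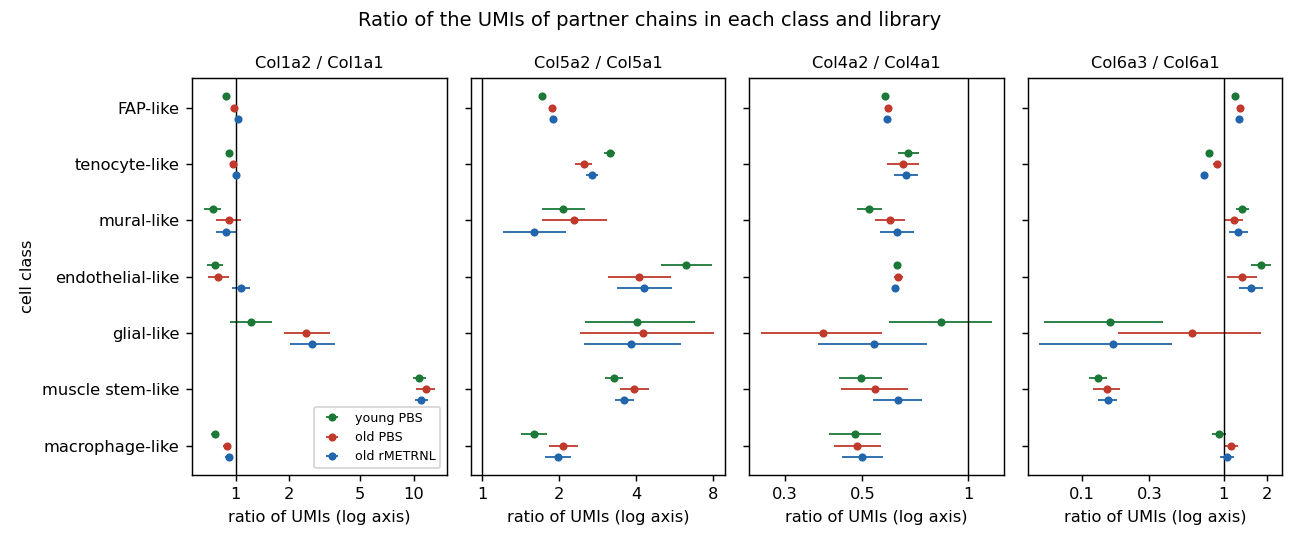
Ratio of the UMIs of 4 pairs of partner chains (horizontal, log axis) in each cell class (vertical), with points for the 3 libraries and bars for the 95% counting interval. The Col1a2 to Col1a1 ratio is above 10 in muscle stem-like cells of all 3 libraries and near 1 in FAP-like cells, and the Col4a2 to Col4a1 ratio lies below 1 in every class.

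Collagen transcript levels at both ages were compared as the ratio of old PBS to young PBS, called the age ratio. The share of collagen UMIs in FAP-like cells was 4.41%, 4.68% and 4.16%, and the median cell held 4.22%, 4.31% and 4.07%. The lower tail was longer in both old groups, with cells at the 5th percentile holding 1.85%, 0.702% and 1.13% collagen. Single chains differed more. Of the 37 chains with at least 50 UMIs in FAP-like cells, 10 were at least 1.5-fold higher in old PBS with a counting interval that left out 1 (27%), beside 6.89% of all 14236 genes measured in the same way. At least 1.5-fold lower were 4 chains (10.8%, beside 6.76% of all genes). The median log2 ratio of the chains was 0.13, that of all genes -0.04.

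All 6 type IV chains were among the 10 that were higher in old PBS. Col4a1 was at 456 CPM (young PBS), 762 CPM (old PBS) and 527 CPM (old rMETRNL) in FAP-like cells, an age ratio of 1.67 (1.64–1.7). Col4a2 was at 265, 450.0 and 309 CPM, with an age ratio of 1.7 (1.66–1.74). Col4a4 was at 3.53, 9.23 and 5.11 CPM and Col4a3 at 0.905, 2.15 and 1.12 CPM. For these rarer chains the age ratio was 2.38 (1.58–3.62) for Col4a3, 2.61 (2.14–3.2) for Col4a4, 1.52 (1.38–1.66) for Col4a5 and 2.14 (1.45–3.19) for Col4a6. Old PBS was the highest of the 3 libraries for each of them. The make-up of the FAP-like cells differed between libraries, as described further on. With 1 make-up of sub-clusters for all libraries the age ratio was 1.22 for Col4a3 and 1.22 for Col4a5, both inside 1.5-fold, and 1.66 for Col4a4. In the Myoc sub-cluster, which held the most Col4a3 UMIs in each library, its age ratio was 0.654 (0.372–1.16). In the Cxcl10 sub-cluster that ratio was 3.32 (1.07–13.6), on 4 and 16 UMIs in young PBS and old PBS. Endothelial markers, summed over the list of the vessel class that is rich in Col4a1, were at 28.8, 45.7 and 34.9 CPM in FAP-like cells and at 6688, 6923 and 6513 CPM in endothelial-like cells, and mural markers at 574, 330.2 and 416 CPM in FAP-like cells. Macrophage markers summed to 354, 393 and 376 CPM in FAP-like cells and FAP markers to 10972, 16977 and 13210.4 CPM, and the median FAP-like cell held 26014, 21521 and 24458 UMIs. The part of these values in the ratios was not tested.

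The other chains higher in old PBS were Col15a1, Col8a1, Col6a6 and Col9a3. Col15a1 was at 129 CPM (young PBS), 227 CPM (old PBS) and 134 CPM (old rMETRNL) in FAP-like cells, an age ratio of 1.76 (1.7–1.82). Col8a1, at the levels already given, had an age ratio of 1.52 (1.48–1.55) and Col6a6 of 1.72 (1.51–1.95). Col8a1 and Col4a5 were near the limit and inside it with the mean of per-cell CPM in place of summed UMIs, at 1.39 and 1.34, and Col8a1 also with doublet calls kept, at 1.45. Col9a3 had 1.61 (1.08–2.41), on 51, 53 and 62 UMIs. With 1 make-up of sub-clusters Col6a6 was at 1.11 and Col9a3 at 1.21, both inside the limit. The 4 lower chains were Col11a1, Col6a5, Col9a2 and Col6a4. Col11a1 was at 13.9, 4.24 and 10.1 CPM in FAP-like cells, an age ratio of 0.306 (0.25–0.371), and was detected in 12.8%, 2.99% and 6.06% of the cells. Tenocyte markers, of the class richest in Col11a1, summed to 939.9, 1038 and 760.3 CPM in FAP-like cells and 21677, 22993 and 21704 CPM in tenocyte-like cells. None of the 10 was at 0, and 3 of the 10 were, like Col11a1, lowest in old PBS, namely Scx (1.92, 1.5 and 2.35 CPM), Kera (1.96, 0.273 and 1.37 CPM) and Cilp2 (0.64, 0.171 and 0.387 CPM), while Tnmd was at 14.4, 25.8 and 29.1 CPM. Their part in the Col11a1 ratio was not tested. The lower chains otherwise were sparse. Col6a5 had 242, 68 and 45 UMIs and an age ratio of 0.435 (0.328–0.572), Col9a2 111, 30 and 21 UMIs and 0.419 (0.27–0.631), and Col6a4 43, 13 and 23 UMIs and 0.468 (0.231–0.887). Col6a4 passed the minimum only through young PBS.

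The abundant chains differed by less than 1.5-fold. The age ratio was 0.887 (0.883–0.89) for Col1a1, 0.987 (0.982–0.991) for Col1a2 and 1.2 (1.2–1.21) for Col3a1. The type VI chains Col6a1, Col6a2 and Col6a3 had ratios of 1.12, 1.19 and 1.22, and Col5a3 of 1.33 (1.31–1.36). Col12a1 was just inside the limit, at 0.668 (0.646–0.691).

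Libraries of old mice with and without the protein were compared as the ratio of old rMETRNL to old PBS, called the treatment ratio. It shares the old PBS library with the age contrast, so that the ratios of the contrasts are not independent of each other. In FAP-like cells 2 of 37 chains were at least 1.5-fold higher (5.41%, beside 4.44% of all genes) and 10 at least 1.5-fold lower (27%, beside 4.43%). The median log2 ratio was -0.34 over the chains and 0.02 over all genes. The collagen share of UMIs in FAP-like cells had a ratio of 0.888, and one of 1.06 in the age contrast, which was 0.976 where each cell was given equal weight.

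Among the lower chains were Col15a1 with a treatment ratio of 0.591 (0.571–0.613), Col8a1 with 0.657 (0.644–0.671) and Col6a6 with 0.62 (0.546–0.705). The type IV chains Col4a3, Col4a4 and Col4a6 were at 0.519 (0.35–0.765), 0.553 (0.461–0.663) and 0.513 (0.347–0.753). With 1 make-up of sub-clusters Col4a3 was at 0.866 and Col4a4 at 0.766, inside the limit, and in the Myoc sub-cluster their treatment ratios were 1.06 (0.599–1.87) and 1.3 (0.971–1.75). In the Cxcl10 sub-cluster they were 0.754 (0.316–1.73) and 0.587 (0.412–0.828). Col4a1 and Col4a2 were just inside the limit, at 0.691 (0.679–0.704) and 0.687 (0.671–0.704), and Col4a5 was at 0.785 (0.719–0.857). Col8a2, with an age ratio of 1.03 (0.931–1.13), was at 23.9, 24.5 and 14.2 CPM, a treatment ratio of 0.58 (0.52–0.647). Col6a5 (0.441, 0.296–0.652), Col9a2 (0.467, 0.254–0.843) and Col26a1 (0.40, 0.154–0.976) completed the list. With a marker gate in place of clusters Col6a5 was at 0.684, inside the limit. With the mean of per-cell CPM in place of summed UMIs Col8a1 was at 0.689 and Col6a6 at 0.681, also inside it. Col26a1 rests on 30, 15 and 9 UMIs, at 0.662, 0.513 and 0.205 CPM. With the cell holding most UMIs of a chain left out of each library, Col9a2 was at 0.527 (0.273–1.0) and Col26a1 at 0.519 (0.164–1.56), intervals that include 1, and the other 8 stayed called. Col26a1 also passed the minimum of 50 UMIs only with those of old PBS.

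The chains higher in old rMETRNL were Col11a1 and Col2a1. Col11a1 had a treatment ratio of 2.39 (1.96–2.94). Col2a1 was at 0.706 CPM (young PBS), 0.547 CPM (old PBS) and 5.67 CPM (old rMETRNL) in FAP-like cells, a ratio of 10.4 (6.26–18.4). It reached the minimum of 50 UMIs only through old rMETRNL, with 249 UMIs there and 48 in the other libraries together, so without it 1 chain, Col11a1, is higher. Its UMIs came from few cells, and the size of the ratio depended on which cells were kept, being 5.21 with doublet calls kept. In old rMETRNL 39 of 1700 cells held the 249 UMIs, 68 of them in 1 cell, and 1% of the cells held 89.96%. Col1a1, Col1a2 and Col3a1 had treatment ratios of 0.916, 0.969 and 0.877.

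Old rMETRNL was also set against young PBS. In FAP-like cells 1 of 37 chains, Col2a1 (8.04, 5.55–12), was at least 1.5-fold higher, beside 3.26% of all genes, and 5 were lower, beside 3.62%. As in the treatment contrast, Col2a1 was measured only through the library in which it was high, and without it the count of higher chains is 0. With the stricter cell filter this Col2a1 ratio was 2.19. The lower chains were Col6a5 (0.192, 0.136–0.265), Col9a2 (0.195, 0.116–0.313), Col26a1 (0.31, 0.129–0.669), Col6a4 (0.552, 0.318–0.937) and Col8a2 (0.595, 0.538–0.657). Col26a1 and Col6a4 likewise passed the minimum only through young PBS, which leaves 3. Col15a1 was at 1.04 (1.0–1.08), Col8a1 at 0.996 (0.975–1.02), Col4a1 at 1.16 (1.13–1.18) and Col1a1 at 0.812 (0.809–0.815).

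**Figure D3:**
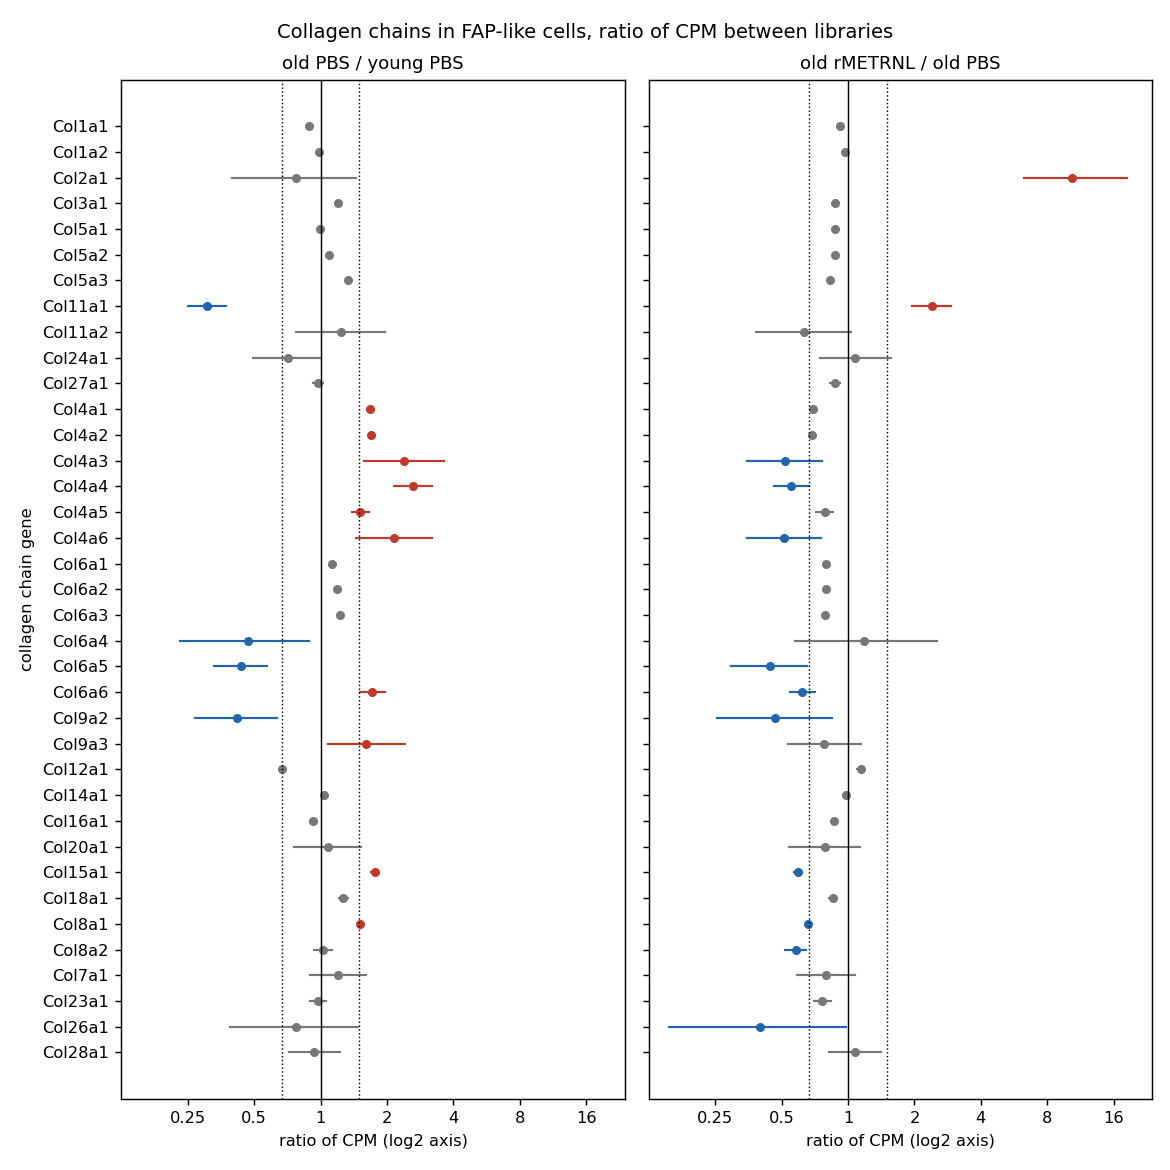
Ratio of CPM (log2 axis) of the 37 chains with at least 50 UMIs in FAP-like cells, for old PBS over young PBS (left) and old rMETRNL over old PBS (right). Points are ratios, bars 95% counting intervals, dotted lines 1.5-fold, and red and blue mark chains past 1.5-fold higher and lower. All 6 type IV chains, Col15a1 and Col8a1 are red on the left, and none of the type I, III or V chains passes a dotted line in either panel.

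FAP-like cells were divided into 7 sub-clusters, again without collagen genes, which are named here by a leading gene. The Myoc sub-cluster held 5.16, 15.2 and 9.12% of FAP-like cells, the Pi16 sub-cluster 7.59, 10.3 and 12.6%, the Swt1 sub-cluster 28.4, 11.7 and 16.2% and the Cxcl10 sub-cluster 27.5, 43.3 and 30.6%. The Il11 sub-cluster held 22.5, 13.5 and 21.5% and the Hist1h1b sub-cluster, led by genes of dividing cells, 7.96, 4.11 and 9.41%. The Il11 sub-cluster was also led by the contractile genes Acta2 and Tagln. The Sfrp5 sub-cluster, led by Sfrp5, Itgb4 and Cldn1, had only 14, 25 and 8 cells, and collagen made up 1.4, 0.639 and 0.417% of its UMIs, against 4.59, 4.73 and 4.01% in the Il11 sub-cluster. None of the 12 FAP markers was among its 10 leading genes, as in the Cxcl10, Swt1, Il11 and Hist1h1b sub-clusters, and some of its leading genes, such as Itgb4 and Cldn1, are known from epithelial and nerve sheath cells. FAP markers summed to 16224, 18892 and 19219.9 CPM in it, against 6766, 8457 and 7428 CPM in the Il11 and 36093, 41893 and 38928 CPM in the Myoc sub-cluster. Without it the age ratio over FAP-like cells was 2.6 for Col4a3 and 2.64 for Col4a4.

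Levels of chains differed between sub-clusters. Col3a1 was highest in the Pi16 sub-cluster, at 23286, 17688 and 16645 CPM, against 10741, 16040.1 and 13581 CPM in the Swt1 sub-cluster. Col14a1 was at 1143, 895 and 776 CPM in the Pi16, 621, 546 and 655 CPM in the Cxcl10 and 252, 270.2 and 235 CPM in the Il11 sub-cluster. Col6a6 was at 73.2, 54.2 and 43.1 CPM in the Pi16 and 54.7, 76.8 and 54.7 CPM in the Myoc sub-cluster and at 1.58, 2.88 and 2.27 CPM in the Il11 sub-cluster. Conversely, Col15a1 and Col8a1 were low in the Pi16 sub-cluster, at 22, 51.4 and 27.8 CPM and 67.1, 111 and 98.5 CPM. Col4a4 was at 53.8, 42.9 and 55.9 CPM in the Myoc sub-cluster and at 1.08, 1.73 and 1.04 CPM in the Il11 sub-cluster, and Col4a3 at 20.7, 13.5 and 14.4 CPM and 0.25, 0.192 and 0.0948 CPM. Both were also high in the small Sfrp5 sub-cluster, at 46, 61.8 and 103 CPM for Col4a4. The chains of this pair with facing starts were thus highest in the same sub-clusters, and the share of cells in both sub-clusters was largest in old PBS. Within the Myoc sub-cluster the age ratio of Col4a4 was 0.797 (0.575–1.11). It was 3.42 (2.17–5.59) in the Cxcl10 sub-cluster, on 24 and 99 UMIs in young PBS and old PBS. In the Swt1 sub-cluster it was 3.1 (1.65–5.75), on 27 and 20 UMIs, and in the Pi16 sub-cluster 2.55 (1.21–5.74), on 11 and 25. In the Il11, Hist1h1b and Sfrp5 sub-clusters it was above 1 with intervals that include 1.

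Within sub-clusters some chains differed in 1 direction and others did not. Col15a1 was higher in old PBS than in young PBS in 6 of the 6 sub-clusters with at least 50 UMIs, with ratios of 1.14 to 2.57, and lower in old rMETRNL than in old PBS in 6 of 6, with ratios of 0.46 to 0.799. Col4a1 was higher in old PBS in 6 of 7 sub-clusters, the exception being the Sfrp5 sub-cluster, with a ratio of 0.423 (0.325–0.546). Col4a2 and Col8a1 were also higher in 6 of 7. Col11a1 was lower in old PBS in 5 of 5 sub-clusters, with ratios of 0.182 to 0.458, and Col12a1 in 6 of 6. Col6a6 was higher in old PBS in 3 of 4 and lower in the Pi16 sub-cluster, at 0.74 (0.591–0.925). Col4a5 was higher in 4 of 6 and was at 0.92 (0.737–1.15) in the Pi16 and 0.886 (0.643–1.23) in the Myoc sub-cluster, intervals that include 1. Giving all libraries 1 make-up of sub-clusters left 7 chains past 1.5-fold higher in old PBS and 7 past it lower in old rMETRNL than in old PBS, with Col7a1 entering both lists. The age ratio was then 1.81 for Col15a1, 1.55 for Col4a1, 1.66 for Col8a1 and 0.315 for Col11a1. It was 1.11 for Col6a6 and 1.21 for Col9a3, which like Col4a3 and Col4a5 were inside 1.5-fold, as were the treatment ratios of Col4a3, Col4a4, Col6a6 (0.707) and Col9a2 (0.769).

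Type I and III chains differed in direction between sub-clusters. In the Myoc sub-cluster Col1a1 was at 9821, 5281 and 7389 CPM, with 0.538 (0.524–0.552) as age ratio and 1.4 (1.36–1.43) as treatment ratio. In the Hist1h1b sub-cluster it was at 11396, 12879 and 7539.8 CPM, with ratios of 1.13 (1.11–1.15) and 0.585 (0.577–0.594). Col3a1 was lower in old PBS than in young PBS in the Myoc (0.635, 0.622–0.649) and Pi16 (0.76, 0.75–0.769) sub-clusters and higher in the Cxcl10 (1.21, 1.2–1.22) and Hist1h1b (1.41, 1.39–1.43) sub-clusters. In the Pi16 sub-cluster Col6a5 was at 67.4, 7.68 and 3.86 CPM. Of the 242 Col6a5 UMIs of young PBS 1 cell held 48.

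**Figure D4:**
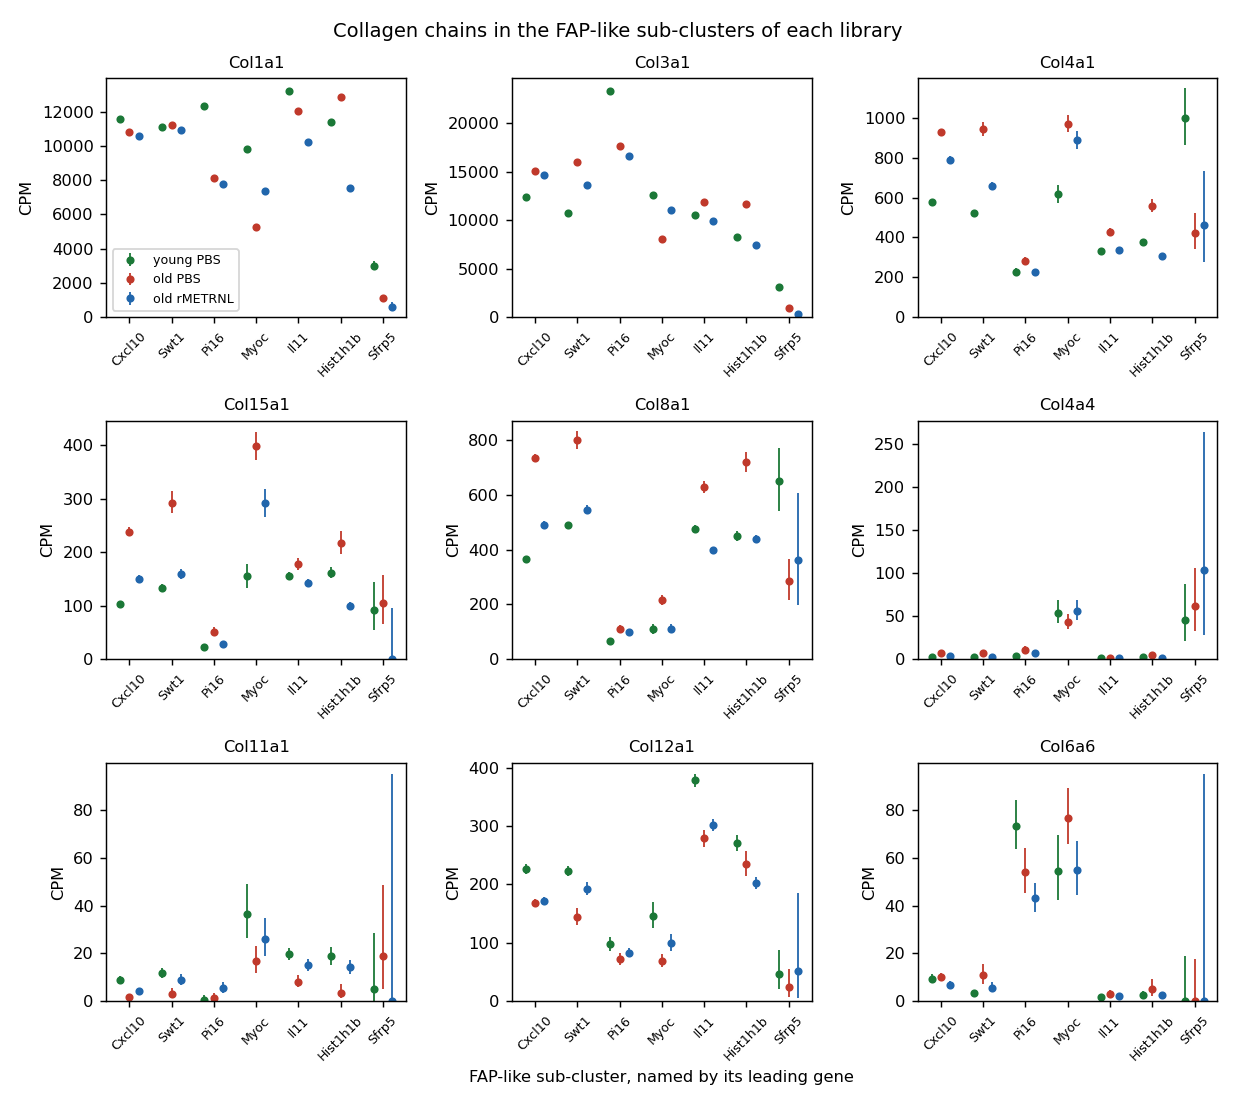
CPM (vertical, from 0, scaled for each chain) of 9 chains in the 7 FAP-like sub-clusters (horizontal, named by leading gene) with points for the 3 libraries and bars for 95% Poisson intervals. Old PBS is the highest point for Col15a1 and Col8a1 in the Il11, Swt1, Myoc, Cxcl10 and Hist1h1b sub-clusters, Col4a4 is concentrated in the Myoc and Sfrp5 sub-clusters and Col6a6 in the Pi16 and Myoc sub-clusters.

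In both vessel classes the chains past 1.5-fold in the age contrast were lower in old PBS. Of 20 chains with at least 50 UMIs in endothelial-like cells, none was at least 1.5-fold higher in old PBS than in young PBS, beside 8.04% of all genes, and 4 were lower, beside 7.59%. They were Col18a1 (0.416, 0.39–0.444), Col15a1 (0.602, 0.571–0.634), Col6a3 (0.601, 0.498–0.723) and Col27a1 (0.313, 0.117–0.715). In the treatment contrast 3 were higher, beside 5.16% of genes, namely Col18a1 (2.07, 1.94–2.21), Col13a1 (3.47, 2.09–6.08) and Col27a1 (3.92, 1.76–10.3), and Col8a1 and Col9a3 were lower, beside 4.96%. Several of these rest on few cells. In young PBS 1% of the endothelial-like cells held 50.5% of the Col6a3 UMIs, Col27a1 had 35, 7 and 47 UMIs, and in old rMETRNL 1% of the cells held 61.7% of the Col13a1 UMIs. Col27a1 in old rMETRNL and Col9a3 in old PBS passed the minimum only through the library in which they were high. The calls named here were kept with the highest cell of each chain left out, where Col3a1 was also past 1.5-fold higher in old PBS, at 1.58 (1.41–1.77). Col5a1 was then past it lower in the treatment contrast, at 0.644 (0.447–0.929) in place of 0.766. Col4a1 had an age ratio of 0.743 (0.727–0.76) in these cells. The endothelial-like class joined unlike clusters. A cluster led by Cldn5 and Gpihbp1 held 495, 797 and 805 cells, with a median of 4982 UMIs. Another, led by Selp and Sele, held 157, 115 and 161 cells, with a median of 11728 UMIs. The median UMI count per endothelial-like cell was 11395.5, 3955 and 7214. The part of this count and of the mix of clusters in these ratios was not tested.

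Mural-like cells showed the widest set of lower chains. Of 16 chains, 11 were at least 1.5-fold lower in old PBS than in young PBS, beside 10.1% of all genes, and none higher, beside 9.13%. Col3a1 (0.479, 0.431–0.533), Col1a1 (0.496, 0.433–0.569), Col6a3 (0.552, 0.488–0.624), Col5a3 (0.56, 0.472–0.662) and Col18a1 (0.488, 0.415–0.573) were among them. In the treatment contrast 5 were higher (Col1a1, Col1a2, Col3a1, Col12a1 and Col18a1, with a ratio of 1.5 for Col3a1 and 4.91 for Col12a1), beside 6.22% of genes, and none lower, beside 4.95%. Single cells carried much of this. In old rMETRNL the highest of the 82 mural-like cells held 46.2% of the Col1a1 UMIs, 41.6% of Col1a2, 25.7% of Col3a1 and 16 of the 32 Col12a1 UMIs. With the cell holding most UMIs of a chain left out of each library, Col1a1 was at 1.08 (0.901–1.29), Col1a2 at 1.08 (0.904–1.3) and Col3a1 at 1.34 (1.18–1.53), so that 2 of the 5 calls, Col12a1 and Col18a1, were left, while all 11 age calls were kept. Of these, Col12a1 passed the minimum only through young PBS. FAP markers summed to 868, 891 and 958 CPM in these cells and mural markers to 20185, 18190.1 and 25151 CPM. The median UMI count was 6385, 4529.5 and 4613.

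In tenocyte-like cells 4 of 27 chains were at least 1.5-fold higher in old PBS than in young PBS, beside 6.84% of all genes. They were Col15a1 (1.87, 1.43–2.45), Col22a1 (1.93, 1.41–2.66), Col13a1 (1.82, 1.22–2.71) and Col4a4 (3.07, 1.64–5.83). These rest on few cells or UMIs. In old PBS 14 of 116 cells held the 78 Col22a1 UMIs and 1 cell held 20.8% of the Col15a1 UMIs. Col4a4 had 19 and 27 UMIs in young PBS and old PBS. All 4 stayed called with the highest cell of each chain left out. Col23a1 (0.341, 0.195–0.563) and Col26a1 (0.18, 0.0471–0.491) were lower, beside 5.33%. Col26a1 passed the minimum only through young PBS. In the treatment contrast only Col15a1 was past the limit, at 0.571 (0.434–0.75), beside 4.91% of genes lower and 3.29% higher. Col1a1 in these cells had ratios of 0.748 (0.738–0.759) and 1.22 (1.2–1.24). Macrophage markers summed to 1453, 3214 and 1442 CPM in tenocyte-like cells, and their part in the ratios was not tested.

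In muscle stem-like cells 3 of 21 chains were higher in old PBS than in young PBS, beside 4.2% of all genes, and 1 was lower, beside 2.8%. Col5a3 was at 85.7 CPM (young PBS), 137 CPM (old PBS) and 88.3 CPM (old rMETRNL), with ratios of 1.6 (1.45–1.77) with age and 0.643 (0.583–0.709) with treatment. Col4a5 had ratios of 1.88 (1.38–2.56) and 0.604 (0.45–0.814), and Col19a1 of 1.83 (1.14–2.93) and 1.27 (0.861–1.92). Col13a1 was lower with age (0.484, 0.269–0.824) and the only chain higher in old rMETRNL (1.78, 1.04–3.22), beside 2.32% of genes, and Col26a1, Col5a3 and Col4a5 were lower there, beside 3.78%. Col1a2, the leading chain, had ratios of 1.07 (1.02–1.11) and 0.806 (0.773–0.84).

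Glial-like cells were too few for more than a description. Col18a1 was at 1327 CPM (young PBS), 146 CPM (old PBS) and 918 CPM (old rMETRNL), which rests on 223, 40 and 222 UMIs in 20, 66 and 45 cells, and the cell with most of them held 22.9%, 37.5% and 41.9%. Col20a1 came from 4, 12 and 13 cells. Col4a1 was at 470.1, 351 and 385 CPM in glial-like cells, and the median glial-like cell held 7768.5, 4077 and 3851 UMIs.

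Macrophage-like cells, the most numerous class, held collagen UMIs at low levels. Col1a1 was at 41 CPM (young PBS), 34.1 CPM (old PBS) and 37.4 CPM (old rMETRNL) and Col3a1 and Col1a2 at 44.8, 50.6 and 51.9 CPM and 31.3, 30.5 and 34.4 CPM. Free RNA in droplet data gives every class a low level of abundant transcripts, so the level in macrophage-like cells was set as a percentage of that in all non-immune cells of the library. Over the 42 chains the median was 0.826%, 0.955% and 1.03%, and over the 12 FAP markers it was 0.826%, 0.97% and 0.89%. Col1a1 was at 0.556%, 0.578% and 0.64%, Col3a1 at 0.662%, 0.685% and 0.755% and Col6a1 at 0.796%, 0.797% and 0.85%.

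Over the FAP markers it ran from 0.379%, 0.462% and 0.503% to 39.8%, 17% and 19.99%. Some chains stood above the medians. Col15a1 was at 4.13%, 4.88% and 3.75% of the non-immune level, with a CPM of 5.53, 7.47 and 4.92, and UMIs in 7.87%, 10.4% and 7.12% of macrophage-like cells, no cell holding more than 5. Col11a2 was at 33.4%, 53.9% and 41.2%, with 2.19, 2.43 and 2.02 CPM, which exceeded its level in FAP-like cells (0.993, 1.23 and 0.775 CPM) in every library. Col9a3 was at 47.1%, 36.6% and 58.2% and Col7a1 at 17.5%, 21.7% and 20.01%, both under 1 CPM. Col18a1 was at 3.98, 1.99 and 4.51 CPM, with 50.1%, 53.1% and 44.4% of its UMIs in 1% of the cells. The endothelial markers had a median of 1.39%, 2.14% and 1.67% on the same measure. A subtraction of the free RNA expected from FAP-like cells is given with the processing alternatives, and the part of doublets in these levels was not tested.

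**Figure D5:**
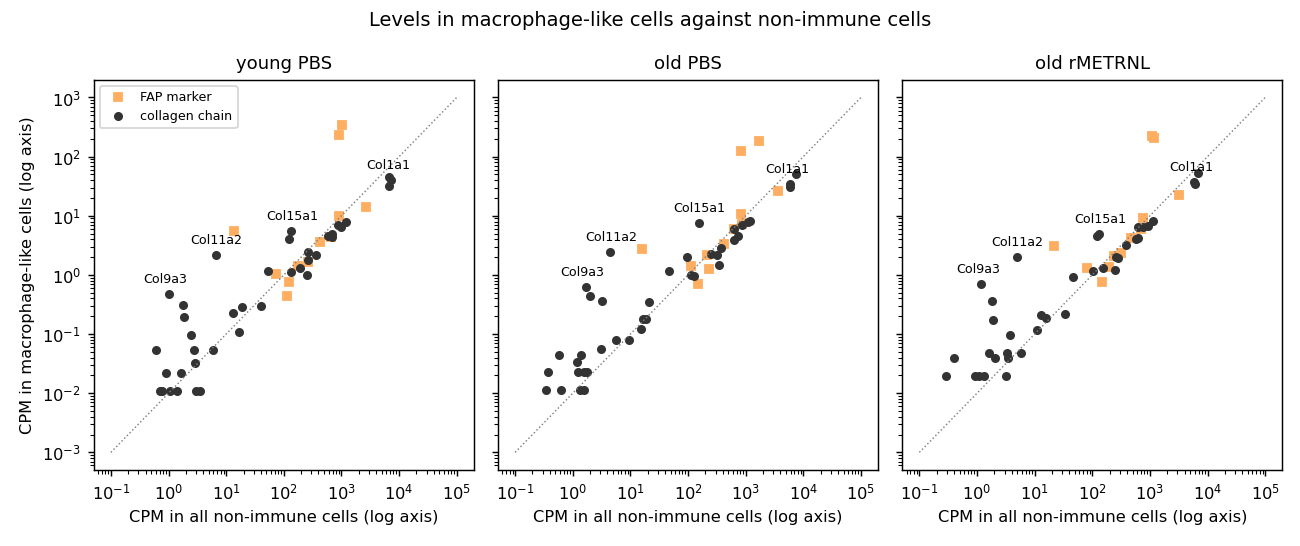
CPM in macrophage-like cells (vertical, log axis) against CPM in all non-immune cells (horizontal, log axis) in each library, for collagen chains (black circles) and FAP markers (orange squares), with genes at 0 UMIs left out. The dotted line marks 1% of the non-immune level. Col1a1 and most chains lie along it, and Col15a1, Col11a2 and Col9a3 lie above it in all 3 panels.

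The genes that modify, export, cleave, crosslink or bind collagen were read in FAP-like cells beside the chains, from a list of 38 genes that all had at least 50 UMIs. In the age contrast 4 were at least 1.5-fold higher and 1 lower, beside 6.89% and 6.76% of all genes, with a median log2 ratio of 0.03. The higher genes were Pcolce2, an enhancer of procollagen cleavage, at 44.2, 78.5 and 78.5 CPM (1.77, 1.67–1.89), the collagen receptor Ddr2 at 114, 176 and 149 CPM (1.53, 1.48–1.59), the glycosyltransferase Colgalt2 (2.1, 1.68–2.64) and the integrin Itga10 (2.19, 1.49–3.24). The prolyl hydroxylase subunit P4ha2 was lower, at 107, 69.5 and 97.4 CPM (0.651, 0.618–0.686). In the treatment contrast 1 gene was higher and 2 were lower, beside 4.44% and 4.43% of all genes, a share of the list near that background. Adamts3 was higher (1.9, 1.44–2.55) and Colgalt2 (0.491, 0.391–0.616) and Itga1 (0.604, 0.563–0.648) were lower, with a median of 0.06. Pcolce2 had a treatment ratio of 1.0 (0.949–1.06).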

How the data were processed

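Single cells of injured muscle were captured in droplets in 3 libraries. The deposited values are unnormalised UMI counts for each gene in each barcode, which the authors made with Cell Ranger 5.0.0 per the file headers (versions 5.0.0 and 3.1.0 per the submitters' processing notes) on mm10. The methods of the paper name a version other than these. The annotation release and the end of the transcript that was read are not given in the sources used here. The deposited counts were used as they stood.

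Barcodes needed 500 detected genes or more and a mitochondrial share below 10%, and Scrublet doublet calls, at 0.8% per 1000 barcodes, were dropped. Cells were normalised to a total of 10000, and 2000 variable genes without collagens were reduced to 30 components. Leiden clusters used 20 neighbours and resolution 0.8, with 0.5 for sub-clusters of FAP-like cells and 0.3 for those of the myocyte-like cluster. They were named from non-collagen marker lists where at least 3 markers were detected. Contractile mural markers, which activated FAPs also express, were not counted against FAP-like sub-clusters, a choice made after the clusters were seen (scanpy 1.11.5, leidenalg 0.10.2, Python 3.11.15). No authors' cell annotation was used, so classes can differ from those of the study. UMIs were summed per class and library and scaled by the class total (CPM). Levels carry exact Poisson intervals and ratios of libraries exact conditional binomial intervals (95%, scipy 1.17.1), which cover counting error only, and a count of 0 allows up to 3 counts. A gene was called higher or lower where its ratio was past 1.5-fold and its interval left out 1, among genes with at least 50 UMIs over the libraries in that class. With 1 library per group this is no test of the conditions.

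Every chain with at least 50 UMIs was named with a level, the 3 highest chains of each class and every chain past 1.5-fold in FAP-like cells with the values of each library. Other genes named came from a list of collagen processing genes and receptors. The members and lists were chosen with earlier results of these data known. Positions are from GENCODE M21 and upstream sequences from RefSeq, both on GRCm38. Cell filters, doublet removal, clustering, class definition, scaling, minimum counts and the fold were varied.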

Additional observations from a re-analysis of the deposited data

Results flagged for a closer look

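Several chains had age ratios in opposite directions in different classes, and these differences between classes were not tested. Col15a1 was higher in old PBS than in young PBS in FAP-like cells (1.76) and tenocyte-like cells (1.87) and lower in mural-like (0.59) and endothelial-like cells (0.602). Col4a2 was higher in FAP-like cells (1.7) and lower in glial-like cells (0.345), which were few. Col5a3 was lower in mural-like cells (0.560) and higher in muscle stem-like cells (1.6). Col13a1, which is sparse, was higher in tenocyte-like cells (1.82) and lower in muscle stem-like cells (0.484).

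Myocyte-like cells, differentiating muscle cells that enter no comparison of the report, held chains above the level that a count of 0 allows. Col19a1 was at 7.04, 7.99 and 11.2 CPM in young PBS, old PBS and old rMETRNL, above its level in muscle stem-like cells (3.87, 7.1 and 9.03 CPM) in each library. Col13a1 was at 11.8, 3.33 and 10.1 CPM. Col26a1 was at 6.81, 5.99 and 2.61 CPM in the same cells and Col4a5 at 3.63, 9.99 and 4.1 CPM.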

How the results depend on the processing

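No paired analysis was possible because each group has 1 library, and no library could be left out. The 32 ratios past 1.5-fold in FAP-like cells kept their direction under all 12 alternatives, and 21 of them stayed past 1.5-fold in all. Of the 32 ratios, 12 moved by more than 1.5 times under some alternative. Col2a1 was lowest at 2.19 for old rMETRNL over young PBS with the stricter filter and at 5.21 for treatment with doublet calls kept, Col11a1 was lowest at 0.204 for age with a marker gate, and the rarer chains Col4a3, Col4a4, Col6a5, Col6a6, Col9a2 and Col26a1 made up the rest. For the exceptions the cause was not tested.

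The ratio of the collagen share in FAP-like cells moved by more than its counting interval. In the age contrast it was 1.06 with the looser and 1.05 with the stricter cell filter, 1.02 with doublet calls kept, 1.06 at resolution 0.4, 1.08 with a marker gate and 0.976 with the mean of per-cell CPM. In the treatment contrast it was 0.934 with the stricter filter, 0.922 with doublet calls kept, 0.879 with the gate and 0.964 with the mean of per-cell CPM. For old rMETRNL over young PBS it was 0.937 and 0.976 with the filters, 0.94 at resolution 0.4 and 0.947 with the gate. Leaving out the smallest FAP-like sub-cluster, chosen after seeing the data like the next setting, gave 1.06 for age, 0.884 for treatment and 0.94 for old rMETRNL over young PBS, and 1 make-up of sub-clusters gave 0.893 for treatment and 0.948 for old rMETRNL over young PBS.

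For counts of chains under changed settings the share of all genes is not given here, so they are not read against a background. Those higher with age were 3 at 2-fold, and those lower with age 7 with the stricter filter and 2 with a minimum of 200 UMIs. Those lower with treatment were 6 with that minimum and 3 at 2-fold. For old rMETRNL over young PBS, chains higher were 2 with the stricter filter, 3 with the gate and 2 with the mean of per-cell CPM, and chains lower were 2 with the minimum of 200 UMIs and 3 at 2-fold. Chains highest in mural-like cells were 3 with the stricter filter, with the mean of per-cell CPM and with a minimum of 200 UMIs. Chains highest in endothelial-like cells were 4, 6, 1 and 0 with the looser filter, the stricter filter, doublets kept and the mean of per-cell CPM, in glial-like cells 3 with the gate, and in muscle stem-like cells 2 with doublets kept. No muscle stem-like class was named with either cell filter and no glial-like class with the stricter one, so they have no count there. Cells named mural-like with the stricter filter numbered 177, 95 and 181, with median UMI counts of 35003, 18775 and 37533 against 6385, 4529.5 and 4613 in the main setting, so the rankings under the filters do not compare like with like.

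Leaving the cell with most UMIs of each chain out of each library, chosen after seeing the data, left 2 of 5 chains higher with treatment in mural-like cells. Of 16 chains there, 10 in place of 6 were then lower for old rMETRNL over young PBS. In endothelial-like cells 1 in place of 0 was higher with age. The share of all genes is not given for that mural-like contrast or with these cells left out, so the counts are not read against a background. Other counts in FAP-like, tenocyte-like, mural-like, endothelial-like and muscle stem-like cells stayed within 1.5 times.

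Subtracting the free RNA expected from FAP markers left Col1a1 in macrophage-like cells below 0, at -31.5, -26.8 and -23.0 CPM, and Col15a1 at 4.74, 6.16 and 4.08 CPM. This does not subtract free RNA of endothelial-like cells, where Col15a1 was at 491, 295 and 441 CPM, so no remainder is read as expression. Chains under 50 UMIs in a class, glial-like cells and mural-like cells are limited by depth.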
